A study of Mus musculus with 3 samples.

Results

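The 10 genes Slc7a1, Slc7a3, Slc7a5, Slc7a11, Slc3a2, Slc1a4, Slc1a5, Slc38a1, Slc38a2 and Slc6a9 encode carriers, or the partner subunit of carriers, that bring amino acids across the cell surface. They were picked on the log2 ratios reported here, because Slc7a3 is among the largest rises, and the other carriers were listed with it. They are 10 of the 21153 genes named on the array and have 15 of its 39429 probes. All their ratios come from the comparison that led to the choice, so they are given as a description, without p-values. RNA of mouse embryoid bodies, which are aggregates of differentiating embryonic stem cells, was taken at day 8 of cardiac differentiation. One culture was Hopx-/- and received the tankyrase inhibitor XAV939 (12.5 µM), which lowers β-catenin. The other was Hopx+/-, so both carry at least 1 mutant allele, and no wild-type culture is part of the comparison. Both came from embryonic stem cell lines made from blastocysts, first grown on feeder cells, and both were plated in medium with VEGF, bFGF, FGF10, ascorbic acid and Glutamax, a source of glutamine. Genotype and inhibitor changed together and cannot be told apart here. Each of the 3 arrays set both RNAs against each other, and the labels call the arrays biological replicates.

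Animal cells take up amino acids through families of solute carriers that differ in what they carry and what drives them. Slc7a1 and Slc7a3 encode cationic amino acid transporters, which carry arginine, lysine and ornithine. Slc7a5 (LAT1) and Slc7a11 (xCT) encode light chains that reach the surface only as heterodimers with the heavy chain encoded by Slc3a2 (4F2hc, CD98). LAT1 exchanges large neutral amino acids such as leucine, whereas xCT imports cystine in exchange for glutamate. Slc1a5 (ASCT2) and Slc1a4 (ASCT1) are sodium-dependent exchangers of small neutral amino acids, glutamine among the former's substrates. Slc38a1 (SNAT1) and Slc38a2 (SNAT2) are sodium-coupled carriers of glutamine and alanine, and Slc6a9 (GlyT1) carries glycine. Several of these genes are known targets of ATF4, the transcription factor that cells induce when amino acids run short.

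The sign of all ratios below is the likely one but is not settled. By the labels Cy5 always held the Hopx-/- RNA. Across spots, however, the raw ratios of array 3 correlated at -0.86 and -0.9 with those of arrays 1 and 2, whose correlation with each other was 0.95. The sign of array 3 was therefore turned, which is also how the authors' values run. Hopx itself then lay at -2.71 ± 0.05 (mean log2 ratio ± SD, n = 3 arrays here and below) in the Hopx-/- cultures. If the direction were the opposite one, every higher would read lower and the reverse: 1 transporter would be higher and 7 lower. With the labelled sign of array 3 kept, the limma calls numbered 0 in each direction (13 and 27 at an unadjusted p below the threshold). The share of probes well above background lay between 55.3% and 65.6% in the Hopx-/- channel and between 60.6% and 67.2% in the Hopx+/- channel. Arrays 2 and 3 shared a slide, which array 1 did not.

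Of the 10 transporter genes, 9 were tested and 1, Slc7a11, was not. In limma's fit over all 14710 tested genes, 7 of the 9 were called higher in the Hopx-/- cultures with XAV939, where 31.5% of all tested genes were. Called lower was 1 of the 9, against 33.0% of all genes; for either direction the share of all genes was 64.5%. The same 7 and 1 counts held for ratios of one sign on all 3 arrays, against 38.3% of all genes above 0 and 39.5% below 0. The median of the 9 mean log2 ratios was 0.64, and that of all tested genes was -0.01. At 1 or more on the log2 scale lay 4 transporters called higher, Slc7a3, Slc7a5, Slc1a5 and Slc6a9, against 7.77% of all genes, and 0 lay at -1 or less, against 9.56%. Since this contrast chose the group, nothing is read from these shares. With median centring in place of loess the split of all calls moved from 48.8% to 60% higher, and 6 transporters were called higher and 0 lower.

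**Figure D1:**
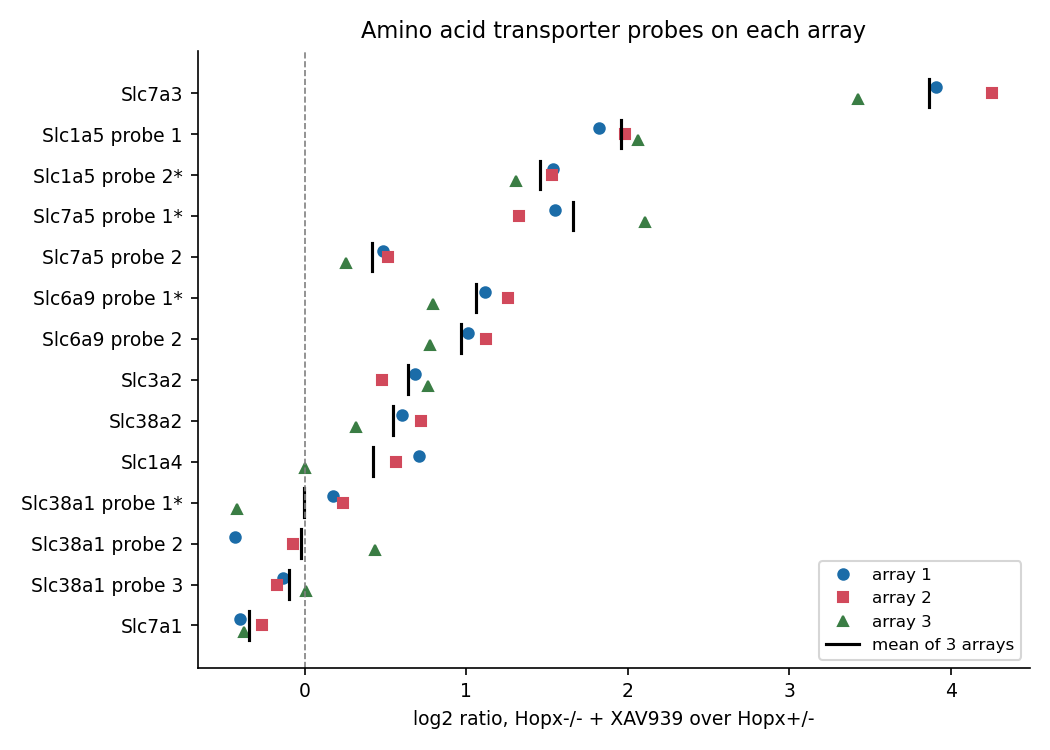
Log2 ratio of every tested transporter probe (rows) on each of the 3 arrays (points) with the mean (bar). An asterisk marks the brighter probe that stands for the gene where several were tested. Slc7a3 lies apart at 3.42 to 4.25, the 3 Slc38a1 probes lie around 0, and Slc7a1 is below 0 on every array.

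Slc7a3 had the highest ratio of the group. Its log2 ratios were 3.91, 4.25 and 3.42 on arrays 1, 2 and 3, a mean of 3.86 ± 0.42 and a 14.55-fold higher level. The processed signal in the Hopx-/- cultures was 34584, 67900 and 41223, and in the Hopx+/- cultures 2175, 3338 and 3382. The lowest Hopx-/- signal was thus far above the highest Hopx+/- signal, and all 6 were well above background and unsaturated. Among the 14710 tested genes Slc7a3 ranked 6 from the top, between Fgf5, a growth factor gene of the epiblast, at 3.99 ± 0.40 and Pf4, a platelet chemokine gene, at 3.83 ± 0.73. With the direction turned it would rank 6 from the bottom. The authors' values for the same probe were 3.45, 4.03 and 3.20.

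Slc7a1, the more widely expressed cationic carrier, did not move with Slc7a3. Its log2 ratios were -0.40, -0.26 and -0.38, with a mean of -0.34 ± 0.07 and a 1.27-fold lower level. Its signals were 6131, 9546 and 7416 in the Hopx-/- cultures and 8007, 11882 and 9041 in the Hopx+/- cultures, lower in the former on each array although the ranges overlap between arrays. The lower call did not hold with median centring, where the mean was -0.07, with outlier backgrounds kept, without replicate 1 (-0.32) or without replicate 2 (-0.39). The 2 cationic transporter genes thus stood at the opposite ends of the group.

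**Figure D2:**
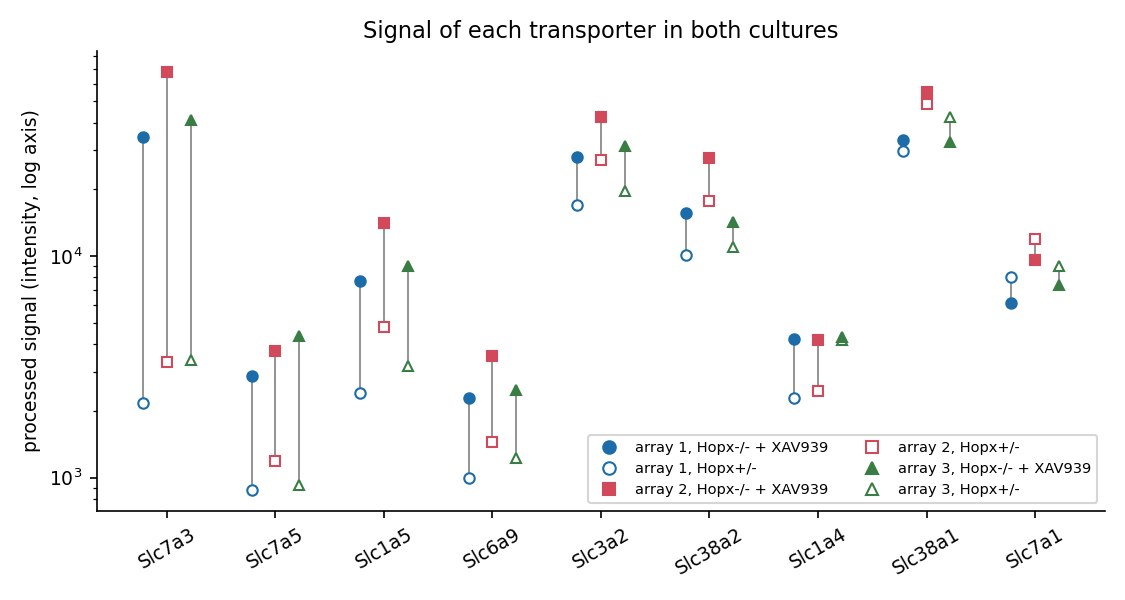
Processed signal (log axis) of the probe that stands for each transporter, in the Hopx-/- culture with XAV939 (filled) and the Hopx+/- culture (open), joined within each array. Filled points lie above open ones on all 3 arrays for 7 genes, by the widest gap for Slc7a3 and only just for Slc1a4 on array 3. They lie below for Slc7a1, and Slc38a1 crosses over on array 3. Heights of different genes are not comparable.

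The LAT1 light chain gene Slc7a5 and the heavy chain gene Slc3a2 were both higher, by unequal amounts. The brighter Slc7a5 probe gave 1.55, 1.33 and 2.11, a mean of 1.66 ± 0.40 and 3.17-fold. A dimmer probe of the same gene gave 0.48, 0.51 and 0.25, a mean of 0.42 ± 0.14. Its processed signals were low, at 174, 377 and 194 in the Hopx-/- and 74.7, 227 and 134 in the Hopx+/- cultures. Its mean was 0.83 with the Feature Extraction log ratio, and the authors' values for it were -0.002, 0.55 and 0.25. In the main processing both probes were above 0 on every array, but they differ in size, and their mean per gene was 1.04. The probe sequences are not used here, so whether they report different transcripts was not tested. Slc3a2 lay at 0.68, 0.48 and 0.76, a mean of 0.64 ± 0.15 and 1.56-fold. Its signal was 27853, 42240 and 31207 in the Hopx-/- cultures against 16920, 27050 and 19578 in the Hopx+/- cultures, higher on each array. With median centring the Slc3a2 mean was 0.95.

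Slc7a11, the cystine carrier's light chain gene, was not well above background in either culture on any array. Its single probe had processed signals of 6.02, 20.9 and 6.78 in the Hopx-/- cultures and 4.24, 4.59 and 5.80 in the Hopx+/- cultures, so no ratio is given for it. Of the light chains that pair with Slc3a2, the group thus holds one with a measured level and one below detection.

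Slc1a5, which encodes the glutamine exchanger ASCT2, was higher with both of its probes. The brighter one gave 1.54, 1.53 and 1.31, a mean of 1.46 ± 0.13 and 2.75-fold. The dimmer one gave 1.83, 1.98 and 2.07, a mean of 1.96 ± 0.12 and 3.89-fold. The 2 probes differ by more than the spread of either over arrays, with all 6 values above 1. The authors' values for the brighter probe averaged 1.27 ± 0.21.

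Slc1a4, its relative for alanine, serine and cysteine, was clearly above 0 on arrays 1 and 2 and at about 0 on array 3. Its ratios were 0.71, 0.56 and 0.00033, a mean of 0.42 ± 0.37. On array 3 the signals were 4304 in the Hopx-/- and 4194 in the Hopx+/- culture, against 4209 and 2292 on array 1. Its higher call was lost under 7 of 14 alternatives that keep array 3 turned, among them the authors' values, which gave -0.41 on array 3, and leaving out replicate 1 (0.28) or replicate 2 (0.35). Array 3 is also the array whose sign was turned, although the labels give it the same dyes as the others. With a dye term in the fit the mean was 0.32 and the higher call was kept. Since array 3 alone was turned, that term cannot tell dye from other differences of array 3.

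Promoter windows of the transporters, shown because ATF4 acts through C/EBP-ATF response elements, were searched for the core TGATGNAA and for the E-box CACGTG on both strands. RefSeq windows (GRCm38.p6) of 250 bases before to 50 after a start were at hand for 6 of the 10 genes, 9 windows in all. The core was present in 1 window each of Slc7a11 and Slc1a4, and in 3.97% of all 32851 windows of that length. In Slc7a11 it lay 66 and 47 bases before the start, in opposite orientations, and in Slc1a4 it began 4 bases before the start. The E-box was in 0 of the 9 windows and in 7.15% of all. Capitals mark the matches in the Slc7a11 window (chr3:50443564-50443863, minus strand) and the Slc1a4 window (chr11:20332664-20332963, minus strand). A match describes letters only, and Slc7a11 was the gene below background here.
Slc7a11: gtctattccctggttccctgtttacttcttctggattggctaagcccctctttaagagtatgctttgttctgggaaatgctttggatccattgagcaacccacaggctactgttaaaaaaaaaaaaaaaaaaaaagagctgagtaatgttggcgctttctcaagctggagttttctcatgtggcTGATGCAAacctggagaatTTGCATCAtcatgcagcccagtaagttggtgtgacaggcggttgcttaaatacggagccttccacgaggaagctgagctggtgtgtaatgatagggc
Slc1a4: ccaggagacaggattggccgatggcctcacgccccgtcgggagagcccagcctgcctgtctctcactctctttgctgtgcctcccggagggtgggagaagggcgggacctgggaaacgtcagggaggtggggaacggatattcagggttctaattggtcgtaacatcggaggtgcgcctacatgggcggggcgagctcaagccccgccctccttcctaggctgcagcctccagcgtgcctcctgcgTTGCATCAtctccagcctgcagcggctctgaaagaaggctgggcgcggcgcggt

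The system A genes of glutamine and alanine uptake differed from each other. Slc38a2 was higher on every array, at 0.60, 0.72 and 0.32, with a mean of 0.55 ± 0.20 and 1.46-fold. Its signals were 15556, 27807 and 14290 in the Hopx-/- cultures against 10064, 17672 and 11030 in the Hopx+/- cultures. The Hopx-/- signal was the higher one on each array. With median centring its mean was 0.85. Slc38a1 lay at 0.17, 0.24 and -0.42 with its brightest probe, a mean of -0.00072 ± 0.36. The other Slc38a1 probes averaged -0.10 ± 0.09 and -0.02 ± 0.43, and neither had a single sign on all arrays. One of them ran from -0.43 on array 1 to 0.44 on array 3, the opposite way to the brightest probe. No setting called Slc38a1.

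Slc6a9, the glycine transporter gene, was about equally higher with both of its probes. The brighter gave 1.12, 1.26 and 0.79, a mean of 1.06 ± 0.24 and 2.08-fold. The other gave 1.01, 1.13 and 0.77, a mean of 0.97 ± 0.18 and 1.96-fold. Signals of the brighter probe were 2275, 3538 and 2472 in the Hopx-/- cultures and 993, 1444 and 1221 in the Hopx+/- cultures, and the groups did not overlap.

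In order of mean log2 ratio the genes ran Slc7a3, Slc7a5, Slc1a5, Slc6a9, Slc3a2, Slc38a2, Slc1a4, Slc38a1 and Slc7a1. Slc7a3 and its neighbour Slc7a5 did not overlap on any array. Slc7a5 and Slc1a5 overlapped over their arrays, as did Slc3a2 with Slc38a2 and Slc38a2 with Slc1a4, Slc1a4 with Slc38a1 and Slc38a1 with Slc7a1. Array 3 was below both other arrays for Slc7a3, Slc1a5, Slc6a9, Slc38a2, Slc1a4 and Slc38a1, and above both for Slc7a5 and Slc3a2. The gap between the mean of arrays 1 and 2 and array 3 was 0.66 for Slc7a3, -0.67 for Slc7a5, 0.64 for Slc1a4 and 0.62 for Slc38a1. The median size of that gap over all tested probes was 0.216, and its upper quantile of 0.95 was 0.701.

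**Figure D3:**
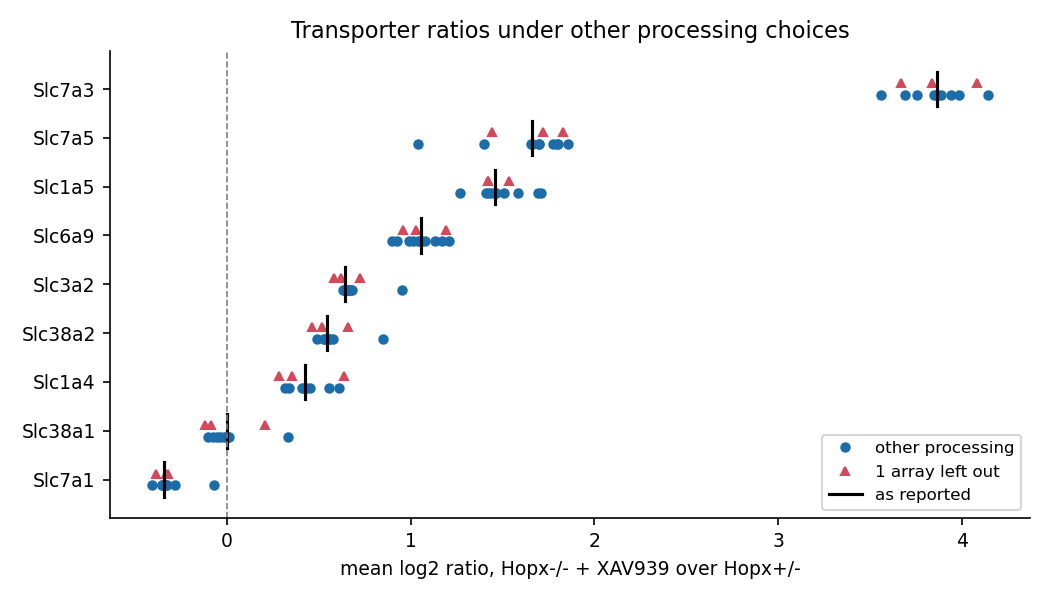
Mean log2 ratio of each transporter as reported (bar), under other processing choices (circles) and with 1 array left out (triangles), all with array 3 turned. Slc7a3 stays between 3.56 and 4.14, Slc7a5 drops to 1.04 when its probes are averaged, and Slc38a1 and Slc7a1 reach or approach 0.

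The 5 named genes whose array ratios lay nearest to those of Slc7a3, by Euclidean distance over the 3 arrays, were Slc35d3, Fgf5, Dnmt3b, Myb and Prim2. Slc35d3, of a nucleotide sugar transporter family, lay at 3.66, 4.04 and 3.26 (distance 0.366). Fgf5 had a mean of 3.99 ± 0.40 (distance 0.369) and the DNA methyltransferase gene Dnmt3b one of 3.83 ± 0.16 (distance 0.380). Myb, a transcription factor gene of blood progenitors, and Prim2, a primase subunit gene, followed at distances of 0.547 and 0.572.

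Markers of cell types shifted between the same cultures. Of all tested genes, limma called 31.5% higher and 33.0% lower, or 64.5% in either direction. Beside those shares, nothing is read from the counts of the small fibroblast, endothelial and blood lists. Of 8 pluripotent cell markers 7 rose and 1, Zfp42, fell (-1.19 ± 0.22, adjusted p = 2.88e-05), and their summed normalised level was 97600 to 130000 in the Hopx-/- and 14700 to 20200 in the Hopx+/- cultures. All 9 visceral endoderm markers fell, with sums of 5540 to 11300 against 147000 to 161000. All 7 cardiomyocyte markers fell too, with sums of 46000 to 60800 against 153000 to 170000. Of 7 fibroblast markers, which also mark feeder cells, 1 rose and 4 fell (sums of 12400 to 16800 against 24900 to 35800). Of 4 tested neural markers 3 rose (10100 to 11300 against 1680 to 2080), of 5 endothelial ones 3 rose and 1 fell (6560 to 7950 against 4030 to 4780), and of 4 tested blood markers 2 rose (10400 to 20000 against 6200 to 8280). With median centring the cardiomyocyte marker Actc1 did not pass (-0.59, adjusted p = 0.166). The endothelial fall, that of Tek (-0.34, adjusted p = 0.0403), did not pass with half-floored backgrounds, outlier backgrounds kept, median centring, the Feature Extraction log ratio or no filter, or without replicate 2 (-0.30) or replicate 3 (-0.22). No listed marker was below background in both cultures on every array. The part of these shifts in the transporter ratios was not tested. In such mixed cultures fewer cells of a type and less RNA per cell cannot be told apart.

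Other amino acid transporters of the cell surface moved both ways. Of 31 listed genes 16 were tested, and 4 rose and 7 fell, or 25% and 43.8%, against 31.5% and 33.0% of all genes. Among those that fell, Slc1a1 was not well above background in the Hopx-/- cultures on any array. It thus entered the test only through the Hopx+/- channel. With signal required in both channels, 4 rose and 6 fell of 15, against 4243 and 4324 of 13178 genes. Their median log2 ratio was -0.13, and none rose by 1 or more. The largest fall was that of Slc7a9, the light chain of the cystine and basic amino acid exchanger of kidney and gut, at -2.53, -3.00 and -3.09 (mean -2.87 ± 0.30, 7.33-fold lower, adjusted p = 4.23e-07). Slc1a6, a glutamate transporter gene, fell at -2.06 ± 0.35 (adjusted p = 3.29e-06), followed by Slc38a5, a carrier of glutamine and histidine (-1.30 ± 0.25, adjusted p = 2.04e-05), and the taurine transporter gene Slc6a6 (-1.13 ± 0.10, adjusted p = 1.75e-05). All 4 were lower on each of the 3 arrays.

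The rises among the other surface carriers were smaller. They were Slc38a3, a glutamine carrier, at 0.76 ± 0.12 (adjusted p = 0.000205), Slc7a6, another Slc3a2 partner, at 0.50 ± 0.11 (adjusted p = 0.00227), the aromatic amino acid carrier gene Slc16a10 at 0.48 ± 0.18 (adjusted p = 0.00415) and the glutamate transporter gene Slc1a3 at 0.37 ± 0.11 (adjusted p = 0.0105). None of the 4 passed with outlier backgrounds kept, and 1, Slc38a3, passed with median centring or with the authors' values. Slc1a3 also did not pass without replicate 1 (0.31). Slc7a7 and Slc7a8, further light chains that pair with Slc3a2, lay at 0.04 ± 0.15 and -0.02 ± 0.12 and did not pass; they were named after their values were seen.

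**Figure D4:**
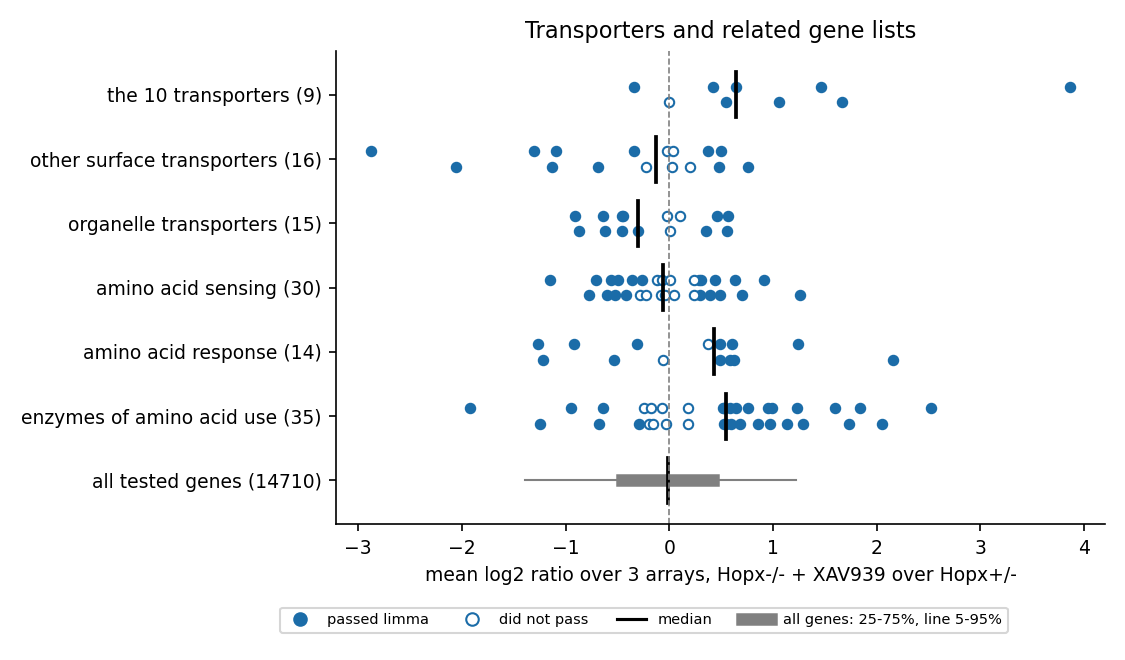
Mean log2 ratio of each tested gene (points, filled where limma's adjusted p passed) in the transporter group and 5 related lists, with list medians (bars) and the spread of all tested genes (grey: 25 to 75%, thin line 5 to 95%). The 9 tested transporters and the enzymes of amino acid use have medians of 0.64 and 0.54, and the other 2 transporter lists have medians below 0.

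Transporters of lysosomes, vesicles and mitochondria held 4 that rose and 8 that fell of 15 tested (26.7% and 53.3%, against 31.5% and 33.0% of all genes), with a median of -0.30. The vesicular GABA and glycine transporter gene Slc32a1 fell at -0.90 ± 0.04 (adjusted p = 5.32e-05) and the lysosomal carrier gene Slc36a4 at -0.87 ± 0.06 (adjusted p = 6.98e-05). The histidine and peptide transporter gene Slc15a4 (-0.64 ± 0.08, adjusted p = 0.000473) and the lysosomal cystine exporter gene Ctns (-0.62 ± 0.02, adjusted p = 0.000491) fell as well. Slc25a13, the mitochondrial aspartate and glutamate carrier gene, rose at 0.55 ± 0.07 (adjusted p = 0.00107), as did the glycine carrier gene Slc25a38 (0.46 ± 0.12, adjusted p = 0.00364) and the ornithine carrier gene Slc25a15 (0.35 ± 0.09, adjusted p = 0.0126). Slc7a14, a lysosomal relative of the cationic carriers, was also called higher, by at least 1.46-fold in the main processing. It was not well above background in the Hopx+/- cultures on any array. It thus entered the test only through the Hopx-/- channel, and no p-value is given for it. Its mean log2 ratio depended on the processing, from 0.23 with outlier backgrounds kept to 3.17 with the Feature Extraction log ratio. Slc25a15 did not pass without replicate 1 (0.33) or replicate 2 (0.41), nor Slc25a38 without replicate 2 (0.41), where 2 of the list rose. The counts were 1 and 2 with median centring, where Slc15a4 (-0.34) and Ctns (-0.41) did not pass. Nor did the rises of Slc7a14 (0.56), Slc25a38 (0.69) and Slc25a15 (0.33) pass there. They were 2 and 2 with outlier backgrounds kept, where Slc32a1 (-0.48), Slc36a4 (-0.44), Slc7a14 (0.23) and Slc25a15 (0.17) did not pass. With the authors' values Slc25a15 (0.16) did not pass either.

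Genes of amino acid sensing pass the supply of amino acids on to the kinase complex mTORC1. Of 30 tested, 10 rose and 10 fell (33.3% and 33.3%, against 31.5% and 33.0% of all genes), with a median of -0.06. Rragb, a small GTPase of the lysosomal surface, rose at 1.26 ± 0.18 (adjusted p = 1.45e-05), and Mios (0.91 ± 0.02), Mlst8 (0.70 ± 0.08) and Mtor (0.63 ± 0.14) rose with adjusted p from 4.92e-05 to 0.000681. The leucine sensor family gene Sesn3 fell at -1.15 ± 0.19 (adjusted p = 2.66e-05), and Rragc (-0.78 ± 0.03), Nprl2 (-0.70 ± 0.13) and Wdr59 (-0.60 ± 0.11) fell with adjusted p from 0.000131 to 0.000795. These counts lay near the shares of all genes. They were 4 and 1 with median centring, where Rragc, Nprl2 and Wdr59 did not pass, and 5 and 7 without replicate 2. With outlier backgrounds kept they were 6 and 3, and Rragb (0.70, adjusted p = 0.0928), Mtor and Wdr59 did not pass; with the Feature Extraction log ratio Rragb lay at 2.16.

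Genes of the response to amino acid shortage, which ATF4 drives through C/EBP-ATF response elements, moved both ways. The promoters of these response genes were not searched. Of 14 genes, 7 rose and 5 fell (50% and 35.7%, against 31.5% and 33.0% of all genes). The ATF4 target genes Chac1, an enzyme that breaks down glutathione, and Trib3, a pseudokinase, rose at 2.31, 2.52 and 1.66 (mean 2.16 ± 0.45, 4.48-fold, adjusted p = 5.58e-06) and at 1.24 ± 0.13 (adjusted p = 1.17e-05). The asparagine synthetase gene Asns (0.63 ± 0.07, adjusted p = 0.000514) and Eif4ebp1, a brake on translation (0.60 ± 0.11, adjusted p = 0.000751), rose less. Atf3 (-1.27 ± 0.13, adjusted p = 1.04e-05) and Ddit3, the gene of CHOP (-1.22 ± 0.14, adjusted p = 1.41e-05), stress-induced transcription factors that ATF4 also targets, fell. So did the mTORC1 inhibitor gene Ddit4 (-0.91 ± 0.06, adjusted p = 5.16e-05) and the phosphatase subunit gene Ppp1r15a (-0.53 ± 0.10, adjusted p = 0.00153). Atf4 itself lay at 0.69, 0.67 and -0.24 (0.37 ± 0.53, adjusted p = 0.0905), lower on array 3 than on the other two, and was named after its values were seen. With median centring Ddit4 and Ppp1r15a did not pass, and 2 genes of the list fell.

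Genes of amino acid use, called enzymes for short, were listed together with genes of one-carbon, glutathione and polyamine metabolism. Not all of them act on an amino acid that these transporters carry. In this mixed list 21 of 35 tested rose (60%) and 6 fell (17.1%), against 31.5% and 33.0% of all genes, with a median of 0.54. Bcat1, which starts the breakdown of branched-chain amino acids, rose at 2.41, 2.71 and 2.45 (mean 2.53 ± 0.16, 5.76-fold, adjusted p = 3.40e-07). Mthfd2, a mitochondrial enzyme of one-carbon metabolism, rose at 2.05 ± 0.10 (adjusted p = 6.82e-07). Cbs, the first enzyme from homocysteine towards cysteine, rose at 1.84 ± 0.11 (adjusted p = 1.20e-06), and Gclc, the catalytic subunit for glutathione synthesis, at 1.73 ± 0.28 (adjusted p = 5.15e-06). Glutamine synthetase, Glul, fell at -1.88, -1.84 and -2.06 (mean -1.93 ± 0.12, adjusted p = 1.02e-06). Argininosuccinate synthase, Ass1, fell at -0.94 ± 0.20 (adjusted p = 9.16e-05) and ornithine aminotransferase, Oat, at -0.68 ± 0.27 (adjusted p = 0.00113). Arginase, Arg1, was called lower at -1.25 ± 0.24, but was well above background in the Hopx-/- cultures on 1 of 3 arrays. It met the filter on every array only through the Hopx+/- channel, and no p-value is given for it. With signal required in both channels, 21 of the list rose and 5 fell of 34 tested, against 4243 and 4324 of 13178 genes. The size for Arg1 depended on the processing: it was -0.52 with outlier backgrounds kept, where Arg1 did not pass, -0.75 with the authors' values and -3.21 with the Feature Extraction log ratio. Oat did not pass with median centring (-0.41).

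Split by substrate, a division made after the values were seen, the enzymes of cysteine and glutathione held 5 that rose of 6 tested and none that fell. Of all tested genes 31.5% were called higher and 33.0% lower, and no substrate pattern is read from such small subgroups. Of the 9 enzymes of glycine, serine and threonine 6 rose and 1 fell, and of the 8 of glutamine, glutamate and proline 3 rose and 1 fell. The 8 genes of arginine and polyamines held 4 that rose, among them the ornithine decarboxylase gene Odc1 (0.97 ± 0.15, adjusted p = 5.41e-05). In the same subgroup 3 fell, and 1, the argininosuccinate lyase gene Asl (-0.03 ± 0.04), did not pass. Of the 4 branched-chain enzymes 3 rose and 1 fell.

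**Figure D5:**
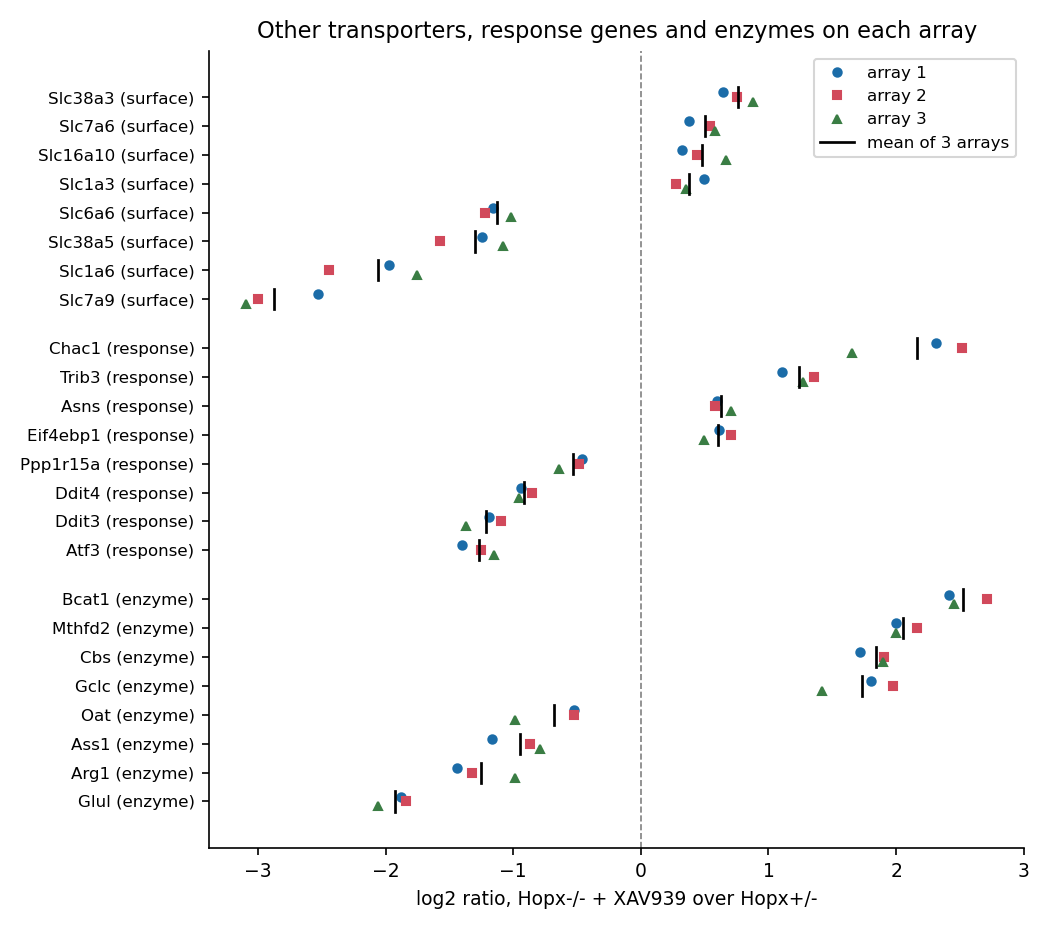
Log2 ratio on each array (points) and mean (bar) of the surface transporters, response genes and enzymes named by the rule of highest and lowest called ratios. All points of a gene lie on one side of 0, with Bcat1 and Chac1 farthest to the right and Slc7a9 farthest to the left.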

How the data were processed

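RNA from both cultures was hybridised together on each of 3 two-colour Agilent arrays. The authors scanned and extracted them with Agilent Feature Extraction. The file headers give version 11.5.1.1, whereas the submitters' processing notes give 8.5.1.1. The deposited median signals and local backgrounds are raw intensity values per spot. The deposited processed signals are intensity values that Feature Extraction background-subtracted and dye-normalized, and their log ratio, as deposited, is on a log10 scale with Cy5 as numerator. The authors' own processed values behave as log2 ratios, with slopes of 0.689, 0.795 and -0.793 on raw log2 Cy5 over Cy3 and column medians of 0.086, -0.08 and 0.053. How they were normalized is not stated in the sources read. Marks of 0 or 1 for saturation, outliers and signal well above background are another kind of value per spot, as deposited.

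Median signals were corrected with normexp (offset 50), where a local background marked as an outlier gave way to the median of that channel's unmarked ones (a choice made after the data were seen), and normalized by loess within arrays in limma 3.58.1 (R 4.3.3). Spots marked as outliers were left out and control spots had no weight. Probes were named through RefSeq accessions (28025 of 39429 with 1 symbol, 11404 with none and 0 with several). Testing required signal well above background in 1 or both channels of every array. The brightest such probe stood for its gene, giving 14710 genes, of which 7 lacked 1 array. Moderated tests of the mean log2 ratio against 0 used lmFit and eBayes, with Benjamini-Hochberg adjustment over all 14710 genes and a threshold of 0.05. Precision is limited by there being 3 arrays, with a median SD of 0.166 (log2). Whether each replicate is a separate culture or line is stated only as "biological", so p-values measure the spread between these arrays.

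The members, the gene lists and the tests were chosen with earlier results of these data known. Named were every member, Hopx, the 4 called genes with the highest and the 4 with the lowest ratio in each related list, and the 5 genes nearest to Slc7a3. Alternatives covered background correction, normalization, the authors' values, the filter, the choice of probe, slide, the sign of array 3 and each array left out. limma's duplicateCorrelation gives no estimate from 3 arrays, so the slide correlation was estimated per gene by moments (consensus -0.699).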

Additional observations from a re-analysis of the deposited data

How the results depend on the processing

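Both RNAs share each array, so every array is its own pair, and the test of the log2 ratio against 0 is already paired. With local backgrounds marked as outliers kept, all genes called were 2666 higher and 2255 lower, transporters lower 0, other surface transporters higher 0 (1 at an unadjusted p below the threshold), organelle transporters 2 and 2, and sensing genes 6 and 3. With median centring these were 3039 and 2023 for all genes, 0 transporters lower, 1 other surface transporter higher, 1 and 2 organelle transporters, 4 and 1 sensing genes, 2 response genes lower and 3 enzymes lower. With the authors' values 1 other surface transporter was higher, 6 and 6 sensing genes higher and lower, and 3 response genes lower. With array 3 as labelled every count was 0, and Tek, an endothelial marker, turned from -0.34 to 0.047. The cause of these changes was not tested. Leaving out each array in turn gave 3515 to 5278 genes higher and 3717 to 5342 lower, transporters 6 to 7 and 0 to 1, other surface transporters 3 to 4 and 6 to 7, organelle transporters 2 to 4 and 7 to 8, sensing genes 5 to 10 and 7 to 11, response genes 7 to 8 and 4 to 5, and enzymes 21 and 5 to 6. A dye term in the fit, added after the data were seen, called 7 transporters higher and 1 lower. The slide as a block gave the same 7 and 1. With its negative slide correlation that fit called more genes, 5670 higher and 5997 lower, against 4636 and 4856 in the main fit. Calls kept under it are therefore no stricter check of a slide effect. Slc7a3, Slc7a5, Slc1a5, Slc6a9, Slc3a2 and Slc38a2 were called higher under all 14 alternatives that keep array 3 turned. Signal over background limits Slc7a11, which has no ratio under the filter.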
